A study of Mus musculus with 52 samples.

Results

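Bone marrow of tumor-bearing NeuT+ mice was compared with that of NeuT- mice at 24 weeks of age, on 11 of the 52 arrays of the series, chosen by the genotype and age in their titles. The 6 NeuT+ arrays came from MMTV-NeuT transgenic females on a BALB/c background, and the 5 NeuT- arrays came from age-matched females without the transgene. The transgene is an activated form of the rat oncogene Erbb2 under the promoter of the mouse mammary tumor virus, which drives it mainly in mammary epithelium. The labels give a tumor burden of 0 in all NeuT- mice and of 20296073 to 156499187 in the NeuT+ mice, with no unit stated. Each array held total marrow RNA of 1 female, and the labels name no sort. The animal numbers in the titles start with 12 or 13. Number series 12 held 2 NeuT+ mice and 1 NeuT- mouse, and series 13 held 4 of each. The labels do not say what a number series stands for. It was kept as a block in the test, and series 13 was also tested alone.

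Bone marrow makes granulocytes, monocytes, red cells, platelets and B cells from shared progenitors, and mouse marrow is rich in neutrophils and their precursors. Tumors release cytokines such as G-CSF that can raise granulocyte output, and lymphoid and red-cell production can fall when granulopoiesis rises. Type I interferon acts through transcription factors that bind interferon-stimulated response elements in promoters and switch on antiviral genes. The transgenic marrow was thus read for granulocyte, lymphoid, erythroid, niche and interferon genes.

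Between 14578 and 16594 probes were detected per array (detection p under 0.01), with 15001 ± 426 in NeuT+ mice (SD, n = 6) and 15581 ± 686 in NeuT- mice (SD, n = 5; exact two-sided permutation p = 0.113). Beside number series, with assignments permuted within it, NeuT+ arrays had 683 fewer detected probes (difference -683, exact two-sided permutation p = 0.0381). The number of arrays limits the precision. The NeuT+ arrays lay farther from the typical profile, taken as the median of each gene over all 47 mouse arrays of every age. The interquartile range of relative log expression was 0.530 ± 0.104 in NeuT+ mice (SD, n = 6) and 0.328 ± 0.0626 in NeuT- mice (SD, n = 5; exact two-sided permutation p = 0.00649, and 0.00952 within number series). Array quality and a difference in the marrow itself cannot be told apart in this value. Of the 11 arrays, 3 correlated best with a group other than their own. NeuT- replicate 1, the only NeuT- mouse of series 12, was closest to NeuT- mice of 12 weeks (0.994, against 0.984 to its own group). NeuT+ replicate 5, which had the lowest tumor burden of the 6, was closest to NeuT- mice of 24 weeks (0.994, against 0.991). NeuT- replicate 4 was closest to NeuT+ mice of 24 weeks (0.994, against 0.993). The 6 measured primary granule genes, among them Mpo and Elane of promyelocytes, were detected on all 11 arrays. Of 6 measured mammary epithelium markers, 3 were detected on none of the 11 arrays. The summed linear level of these 6 markers was 343.7 to 443 in NeuT+ mice and 304 to 439.7 in NeuT- mice.

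Among 11309 genes tested, 277 differed between genotypes (2.45%, limma, adjusted p under 0.05), 114 higher (1.01%) and 163 lower (1.44%) in NeuT+ marrow. The called genes that were higher had a median log2 difference of 0.58, and those that were lower had a median of -0.67. Differences beyond 2-fold were found for 11 of the higher and 39 of the lower genes. The median over all genes was -0.01. Apart from Peg3, the calls had adjusted p-values of 0.0358 or more, close to the threshold. Unadjusted p-values were under 0.05 for 3136 genes (27.7%), of which 1391 were higher (12.3%) and 1745 lower (15.4%). Values of the 2 groups did not overlap for 149 of the 277 called genes, and for 485 of all genes (4.29%). The count rested on single mice. It fell to 1, Peg3, when NeuT- replicate 1, 2, 3 or 5 or NeuT+ replicate 4 or 6 was left out, and to 2 or 11 without NeuT+ replicate 1 or 3. Without NeuT+ replicate 2 it was 183. It rose to 896 without NeuT+ replicate 5 and to 903 without NeuT- replicate 4. NeuT- replicate 1 was the only NeuT- mouse of its number series, which was kept as a block. The fit without this mouse took its difference from the other number series alone. That fit thus drops a whole contrast and does not show the weight of a single mouse. Every one of the 277 genes kept its sign in each of these fits. The genes were called on these same arrays, and each such fit reuses most of them. Neither the kept signs nor the lack of overlap is thus separate support.

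**Figure D1:**
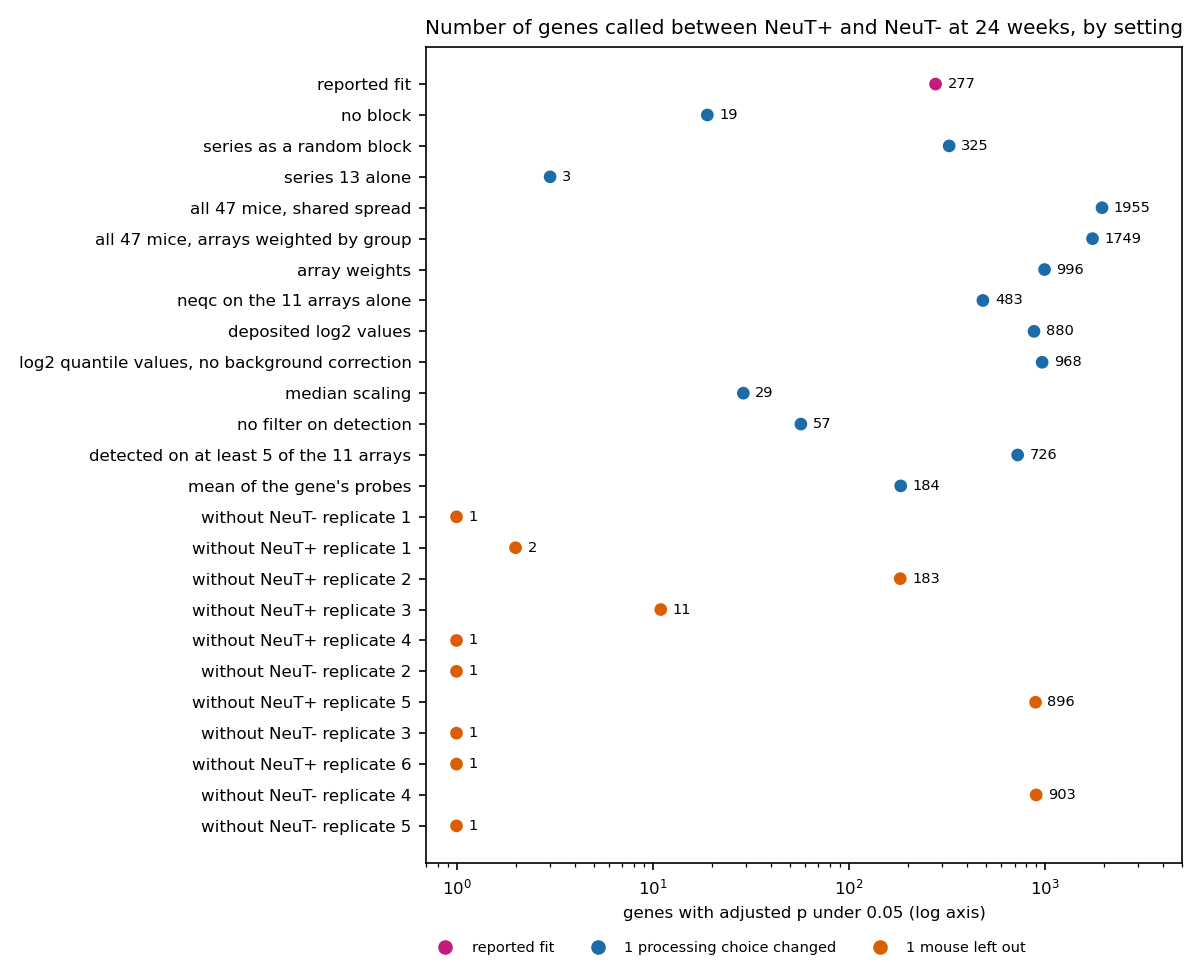
Number of genes past adjusted p 0.05 (x axis, log scale) under each setting (y axis), with the reported fit in pink, other processing choices in blue and fits without 1 mouse in orange. The reported 277 lie between 1 gene in 6 of the fits without a mouse and 1955 in the fit of all 47 mice with a shared spread.

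Within number series 13 alone, where 4 NeuT+ and 4 NeuT- mice were compared, 3 genes passed (0.0265%): Peg3 and Pknox2 were higher and Snx16, a sorting nexin, was lower. Snx16, which is named because the count is small, had a log2 difference of -0.65 in series 13 (adjusted p = 0.0499). Unadjusted p-values were under 0.05 for 2091 genes in series 13 (18.5%), and all 277 genes called over both series were among them. All 277 also had the same sign in the series 13 and in the series 12 contrast. The groups of 4 and 4 did not overlap for 221 of the 277, and for 1123 of all genes (9.93%). The 277 were called in a fit that holds these same arrays. Agreement in sign, unadjusted p and lack of overlap thus largely follows from that choice and is no separate support. The series 12 difference, of 2 NeuT+ mice from 1 NeuT- mouse, was the larger in size for 245 of the 277. Only Cacna2d1, a calcium channel subunit gene with a detection call in 0 of 6 NeuT+ and 1 of 5 NeuT- marrows, had a difference between the series past the threshold (adjusted p = 0.0478), while 1282 genes had an unadjusted p under 0.05 there. With 1 NeuT- mouse in series 12, the test between the series has little power.

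**Figure D2:**
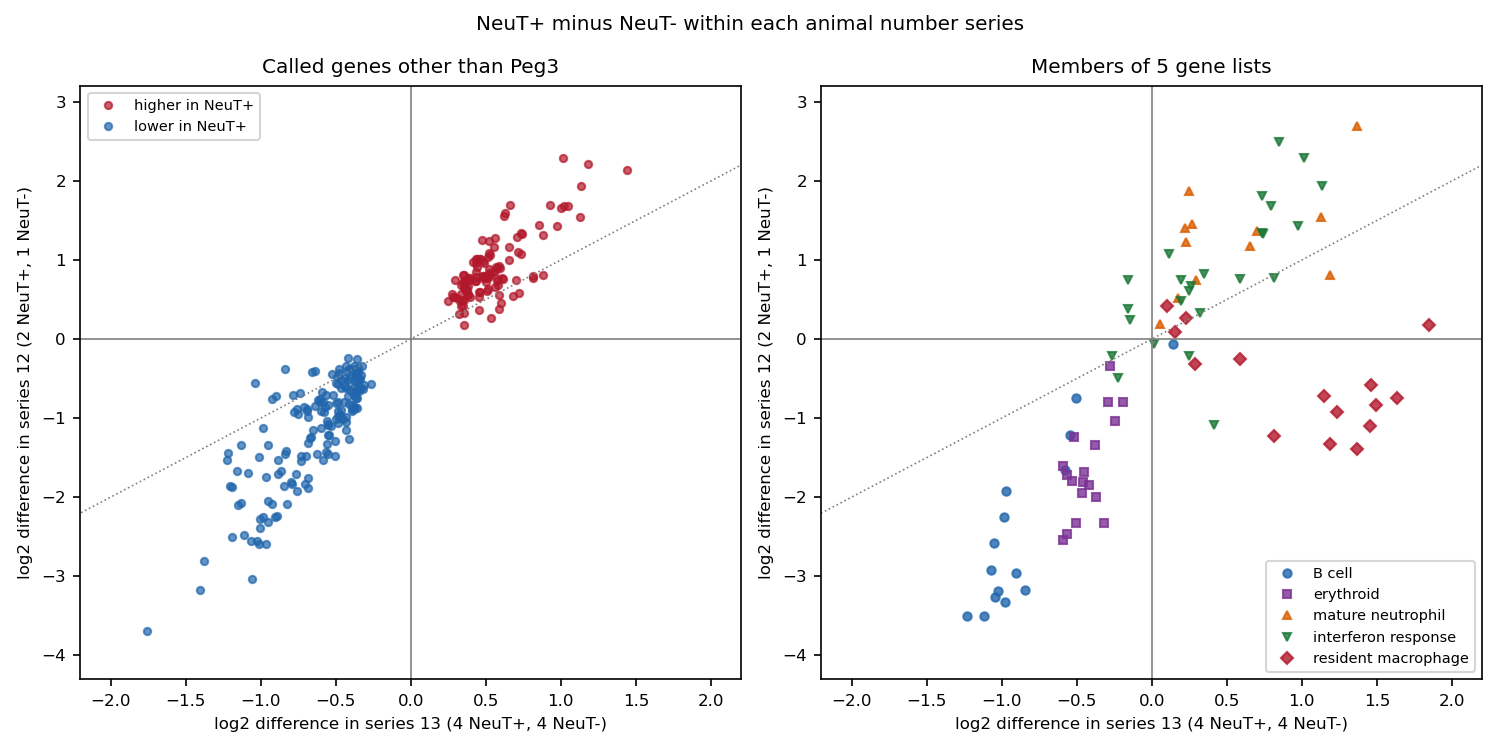
Log2 difference, NeuT+ minus NeuT-, in number series 13 (x axis, 4 against 4 mice) and in series 12 (y axis, 2 against 1 mouse) for the called genes other than Peg3 (left) and for members of 5 gene lists (right). The dotted line marks equal differences. All called genes, which were chosen on these same mice, lie in the lower left or upper right corner. Resident macrophage genes lie mostly in the lower right, with medians of 1.19 in series 13 and -0.72 in series 12.

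Peg3, an imprinted gene that is expressed from the paternal copy and encodes a zinc finger protein, had by far the smallest p-value. Levels below are normalized log2 intensities, and the 5 NeuT- values are given from replicate 1 to 5, replicate 1 being the series 12 mouse. Peg3 stood at 6.02, 5.47, 5.68, 5.56 and 5.53 in NeuT- mice and ran from 9.71 (median 10.05) to 11.76 in NeuT+ mice. Its detection calls were 6 of 6 in NeuT+ and 0 of 5 in NeuT- marrow, so the levels of the NeuT- mice lie at background. Peg3 was at least 17.5-fold higher in NeuT+ marrow, the brighter group being set against the array's lowest detected signal or the probe's own (adjusted p = 6.02e-07). A second probe of Peg3 was likewise detected in 6 of 6 and 0 of 5 mice, and 1 further probe in none of the 11. The call held in series 13 alone (adjusted p = 2.15e-07) and in all 24 other settings. The array's Erbb2 probe is designed on the mouse gene and was not detected on any of the 11 arrays, so it does not check the rat transgene.

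**Figure D3:**
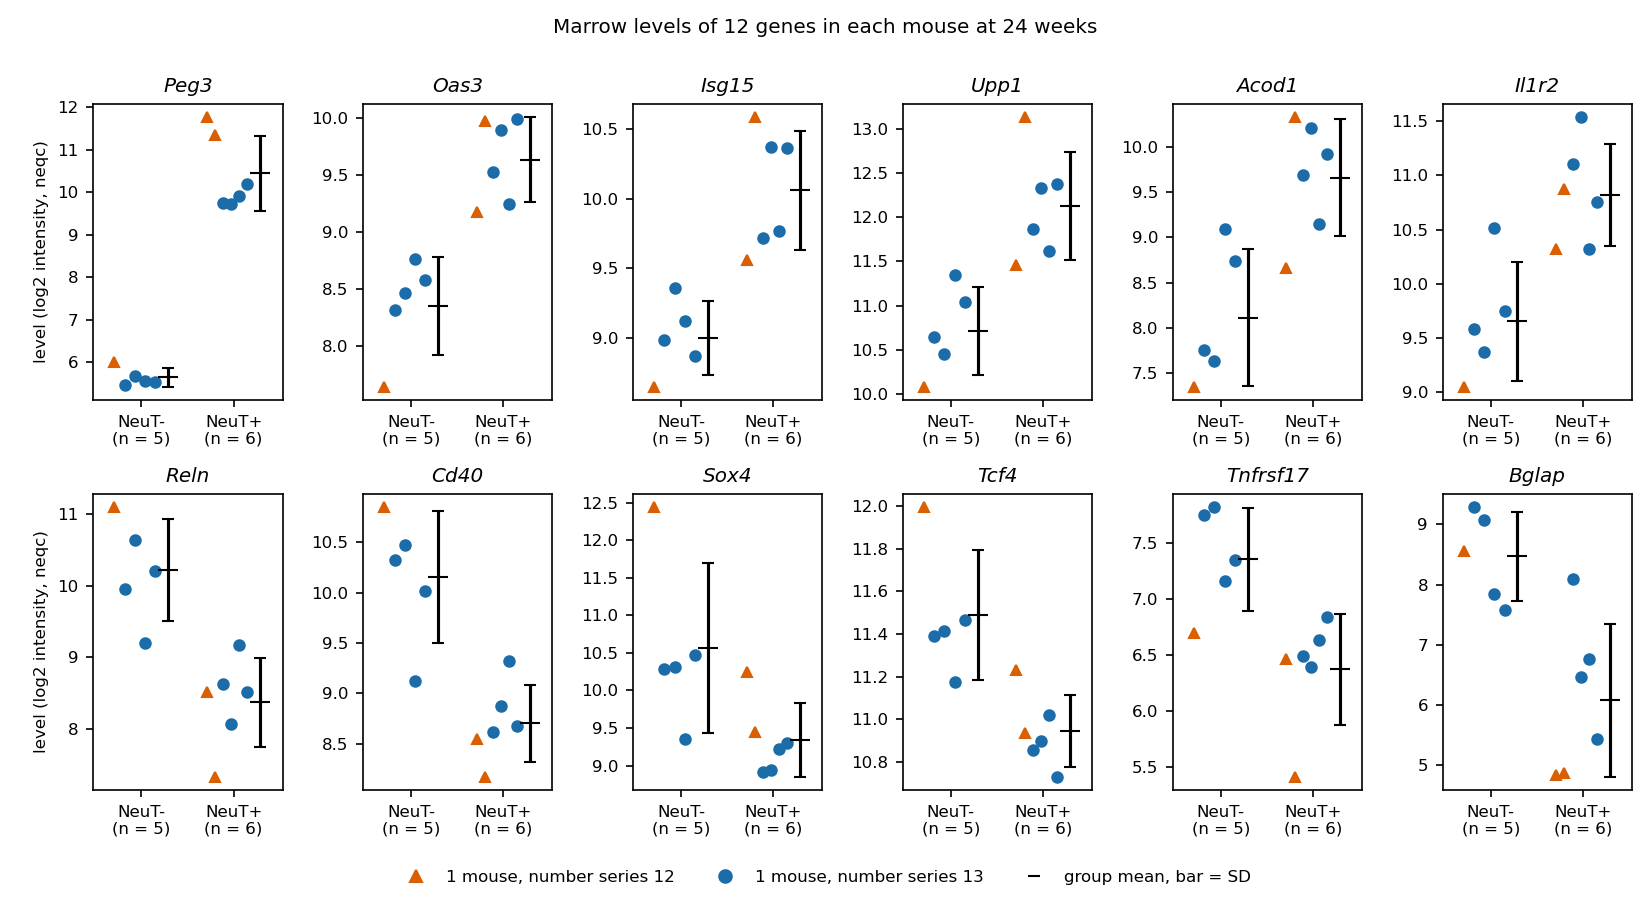
Level of 12 genes (y axis, normalized log2 intensity) in each NeuT- and NeuT+ mouse at 24 weeks, with triangles for number series 12, circles for series 13, and the group mean with its SD in black. Peg3, Oas3, Isg15, Upp1 and Reln separate the groups without overlap, and Acod1, Il1r2, Cd40, Sox4, Tcf4, Tnfrsf17 and Bglap overlap.

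Of 25 measured interferon response genes, 6 rose in NeuT+ marrow, 0 fell and 19 did not pass. Over all genes, 1.01% were called higher and 1.44% lower, and each list count below stands beside these shares. A total of 20 of the 25 interferon genes had a positive difference, against 48.2% of all genes. Their median log2 difference was 0.36. The 6 that rose were Oas3, Rtp4, Isg15, Irf7, Oasl1 and Ifi27l2a. Oas3, which makes the second messenger that activates RNase L, stood at 7.64, 8.32, 8.47, 8.77 and 8.58 in NeuT- mice and from 9.17 (median 9.71) to 9.99 in NeuT+ mice. The groups did not overlap, and Oas3 was 2.52-fold higher (log2 difference 1.33 ± 0.201 SE, adjusted p = 0.0358). Isg15, a ubiquitin-like protein that is attached to other proteins, stood at 8.65, 8.98, 9.36, 9.12 and 8.87 and then from 9.56 (median 10.07) to 10.59. All NeuT+ mice thus lay above all NeuT- mice, by 1.09 ± 0.205 on the log2 scale (adjusted p = 0.0429).

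Irf7, the factor that amplifies interferon production, stood at 7.54, 8.35, 8.56, 8.34 and 8.17 in NeuT- mice and from 8.48 (median 9.08) to 9.48 in NeuT+ mice. The lowest NeuT+ mouse lay below the highest NeuT- mouse over both series, while the groups did not overlap within series 13. Its log2 difference was 0.89 ± 0.189 (adjusted p = 0.0443). Rtp4, an interferon-induced transporter protein, was 2.52-fold higher, with 6.66 as the highest NeuT- level and 7.12 as the lowest NeuT+ level. Oasl1, an oligoadenylate synthetase-like protein, rose by 0.88 ± 0.174, and Ifi27l2a, a small interferon-induced membrane protein, by 0.81 ± 0.153, both without overlap. Oas1g, a further oligoadenylate synthetase gene outside that list, stood at 10.53, 11.33, 11.13, 11.31 and 11.08 and then from 11.83 (median 12.26) to 12.69. It was 2.31-fold higher (adjusted p = 0.0358), and its probes can bind RNA of near-identical copies.

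Members that did not pass included Oas2 at 1.00 (adjusted p = 0.0505), Rsad2 at 0.63 (0.0531), Oas1a at 1.02 (0.0572) and Oasl2 at 1.26 (0.0673). Mx2 stood at -0.29 (adjusted p = 0.176), Mx1 at -0.25 and Ifit2 at -0.02. The differences of the list thus spread from below 0 to 1.33. Within series 13, 9 of the 25 members did not overlap between groups, against 9.93% of all genes, and the list's median was 0.32. The call count over the list ran from 0 to 12 over the other settings and from 0 to 10 over the fits without 1 mouse.

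The promoters of 3 of the called oligoadenylate and ubiquitin-like genes are shown because they hold the core letters of an interferon-stimulated response element. The sequences are from RefSeq (GRCm38.p6), run 5′ to 3′ on the gene's strand from 250 bases before the start of the gene to 50 after it, and capitals mark 2 copies of GAAA with any 2 bases between them, searched on both strands.
Isg15, chr4:156200769-156201068, minus strand: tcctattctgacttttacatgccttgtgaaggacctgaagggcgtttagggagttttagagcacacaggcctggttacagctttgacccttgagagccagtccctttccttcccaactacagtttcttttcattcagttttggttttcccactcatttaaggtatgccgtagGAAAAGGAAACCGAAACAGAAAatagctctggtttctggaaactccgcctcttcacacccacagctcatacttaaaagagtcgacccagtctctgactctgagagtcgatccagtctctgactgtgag
Oas3, chr5:120777610-120777909, minus strand: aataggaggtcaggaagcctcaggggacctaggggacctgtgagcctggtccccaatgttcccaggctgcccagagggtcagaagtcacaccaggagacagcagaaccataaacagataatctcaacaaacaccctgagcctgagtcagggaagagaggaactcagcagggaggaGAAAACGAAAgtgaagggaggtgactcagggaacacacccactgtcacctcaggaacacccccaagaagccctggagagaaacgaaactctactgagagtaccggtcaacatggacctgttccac
Oas1g, chr5:120887564-120887863, minus strand: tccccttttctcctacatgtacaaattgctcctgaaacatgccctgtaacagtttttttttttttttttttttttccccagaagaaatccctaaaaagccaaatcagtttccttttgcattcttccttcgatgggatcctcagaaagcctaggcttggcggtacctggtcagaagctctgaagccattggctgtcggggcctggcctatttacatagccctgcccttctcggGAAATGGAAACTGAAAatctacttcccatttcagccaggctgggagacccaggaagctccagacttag
Counted from the start site, Isg15 holds 3 overlapping matches from position -78 to -66, Oas3 holds 1 match at -75, and Oas1g holds 2 overlapping matches at -18 and -12. In all, 3.99% of 27025 genes with a promoter in the table hold the letters, and 3.92% of the tested genes. Of the called genes with a promoter, 7 of 88 higher genes (7.95%) and 7 of 132 lower genes (5.30%) hold them. On the interferon list it was 11 of 18 genes (61.1%), and 2 of the 4 called members with a promoter. The windows of Irf7 and Oasl1, both called, and of Peg3, Upp1 and Acod1 do not hold these letters. A match is a description of letters and not evidence of binding.

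Genes of activated and mature neutrophils stood higher in NeuT+ marrow. Of 12 measured mature neutrophil genes, 2 rose, 0 fell and 10 did not pass, all 12 had a positive difference, and the median was 0.61, against 1.01% called higher and 48.2% positive over all genes. The number called ran from 0 to 5 over the fits without 1 mouse. Il1r2, the decoy receptor for interleukin 1, stood at 9.05, 9.58, 9.37, 10.52 and 9.75 in NeuT- mice and from 10.32 (median 10.81) to 11.54 in NeuT+ mice. Only NeuT- replicate 4 reached into the NeuT+ range, and the difference was 2.35-fold (log2 difference 1.23 ± 0.252 SE, adjusted p = 0.0441). Mmp9, the gelatinase of neutrophil granules, was 1.33-fold higher without overlap (adjusted p = 0.0488). Clec4e, a receptor for mycobacterial cord factor, stood at 0.87 (adjusted p = 0.0539), Prok2, a chemokine-like peptide, at 1.70 (0.0788) and Trem1, an amplifier of myeloid inflammation, at 1.09 (0.123). Cxcr2 at 0.52 and Csf3r, the receptor of G-CSF, at 0.57 did not pass either. In series 13 the list's median was 0.28, against 1.30 in the series 12 contrast. Within series 13 the groups did not overlap for 1 of the 12 genes, against 9.93% of all genes.

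Of 15 secondary granule genes, 2 rose and 0 fell, with a median of 0.18, against 1.01% called higher over all genes. The 2 that rose are given first. They were Padi4, the enzyme that citrullinates histones in neutrophils, with a 1.51-fold difference (adjusted p = 0.0443), and Cebpe, the transcription factor of granule gene expression, with a 1.27-fold difference (adjusted p = 0.0493). Ltf stood at -0.04, Lcn2 at -0.01, S100a8 at 0.00 and Ngp at 0.02. The brighter probes of this list may understate a difference: Pglyrp1 gave 0.28 on its chosen probe and 0.50 on a dimmer one, and Cd177 gave 0.39 and 0.57. Cebpe went both ways, with 0.34 on its chosen probe and 0.45, 0.33 and 0.28 on dimmer ones. The part of signal saturation was not tested, so values near 0 do not show that these genes were equal. Of 6 primary granule genes, 0 passed and the median was 0.22. Csf2ra at 0.46 (adjusted p = 0.0581), a chain of the GM-CSF receptor, and Spi1 at 0.56 (0.0597), the myeloid factor PU.1, led 14 granulopoiesis receptors and factors, of which 0 passed. Hdc, the histamine-synthesizing enzyme of basophils, mast cells and neutrophils, rose 1.59-fold (adjusted p = 0.0488), while the 5 other measured basophil and mast cell genes stood between -0.35 and -0.18.

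Among genes linked to suppressive myeloid cells, 2 of 11 rose, 0 fell, and the median was 0.20, against 1.01% called higher over all genes. Acod1, the enzyme that makes itaconate in activated myeloid cells, stood at 7.35, 7.76, 7.63, 9.09 and 8.73 in NeuT- mice and from 8.67 (median 9.80) to 10.32 in NeuT+ mice. NeuT- replicates 4 and 5 overlapped with the lowest NeuT+ mouse, and Acod1 was 3.06-fold higher (log2 difference 1.61 ± 0.362 SE, adjusted p = 0.0483). Ncf1, a subunit of the phagocyte oxidase, was 1.47-fold higher without overlap (adjusted p = 0.0441). Cd274, which encodes the inhibitory ligand PD-L1, stood at 0.29 (adjusted p = 0.0872), and Stat3 at 0.20. Clec4n, the pattern receptor Dectin-2, ran from 6.21 to 7.02 in NeuT- mice and from 7.24 (median 7.66) to 8.48 in NeuT+ mice. It was 2.24-fold higher (adjusted p = 0.0441). The Clec4n signal was dim, with raw means of 267 in NeuT+ and 188 in NeuT- mice, and its log2 difference ran from 0.69 to 1.28 over 24 other settings.

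All 17 measured genes of hypoxia and glycolysis had a positive difference, both over both series and in series 13, with medians of 0.39 and 0.28. Of them 1 rose, 0 fell and 16 did not pass, against 1.01% called higher and 48.2% positive over all genes. Pgk1, the glycolytic phosphoglycerate kinase, stood at 12.42, 12.61, 12.64, 12.69 and 12.66 in NeuT- mice and from 12.89 (median 13.01) to 13.17 in NeuT+ mice. The groups did not overlap, with a 1.34-fold difference (adjusted p = 0.0429). Hk3, the hexokinase of myeloid cells, stood at 0.43 without overlap (adjusted p = 0.0567), Hk1 at 0.39, Aldoa at 0.45 and Slc2a1, the main glucose transporter, at 0.56. Upp1, which splits uridine into uracil and a pentose, stood at 10.08, 10.64, 10.45, 11.35 and 11.04 and then from 11.46 (median 12.10) to 13.13. It was 2.71-fold higher without overlap (adjusted p = 0.0446), and its 3 probes gave differences of 1.44, 1.54 and 1.56.

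Other genes that rose by name had roles outside these lists. Slc32a1, the vesicular transporter of GABA and glycine, ran from 6.09 to 6.85 in NeuT- and from 7.32 (median 7.54) to 8.17 in NeuT+ mice, a 2.28-fold difference (adjusted p = 0.0358). Its signal was dim, with raw means of 247 in NeuT+ and 178 in NeuT- mice. Over 24 other settings its log2 difference ran from 0.67 to 1.29, so the fold depends on the processing. Gja5, the gap junction protein a connexin, was 2.17-fold higher, Stap2, a signalling adaptor, 2.00-fold and Ceacam10 1.89-fold, each without overlap. Gja5 was also dim, at raw means of 251 and 182, and its log2 difference ran from 0.64 to 1.25 over those settings. Pknox2, a homeodomain factor, was 1.99-fold higher (adjusted p = 0.0358 over both series and 0.0499 in series 13). Csf1, the growth factor of macrophages, rose within a list of 8 marrow niche factors. Detection calls numbered 4 of 6 in NeuT+ and 0 of 5 in NeuT- marrow, and it was at least 1.23-fold higher (adjusted p = 0.0433). Cxcl12, the retention factor of stem cells, stood at -0.24 (adjusted p = 0.465) and Igf1 at 0.75 (0.132).

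**Figure D4:**
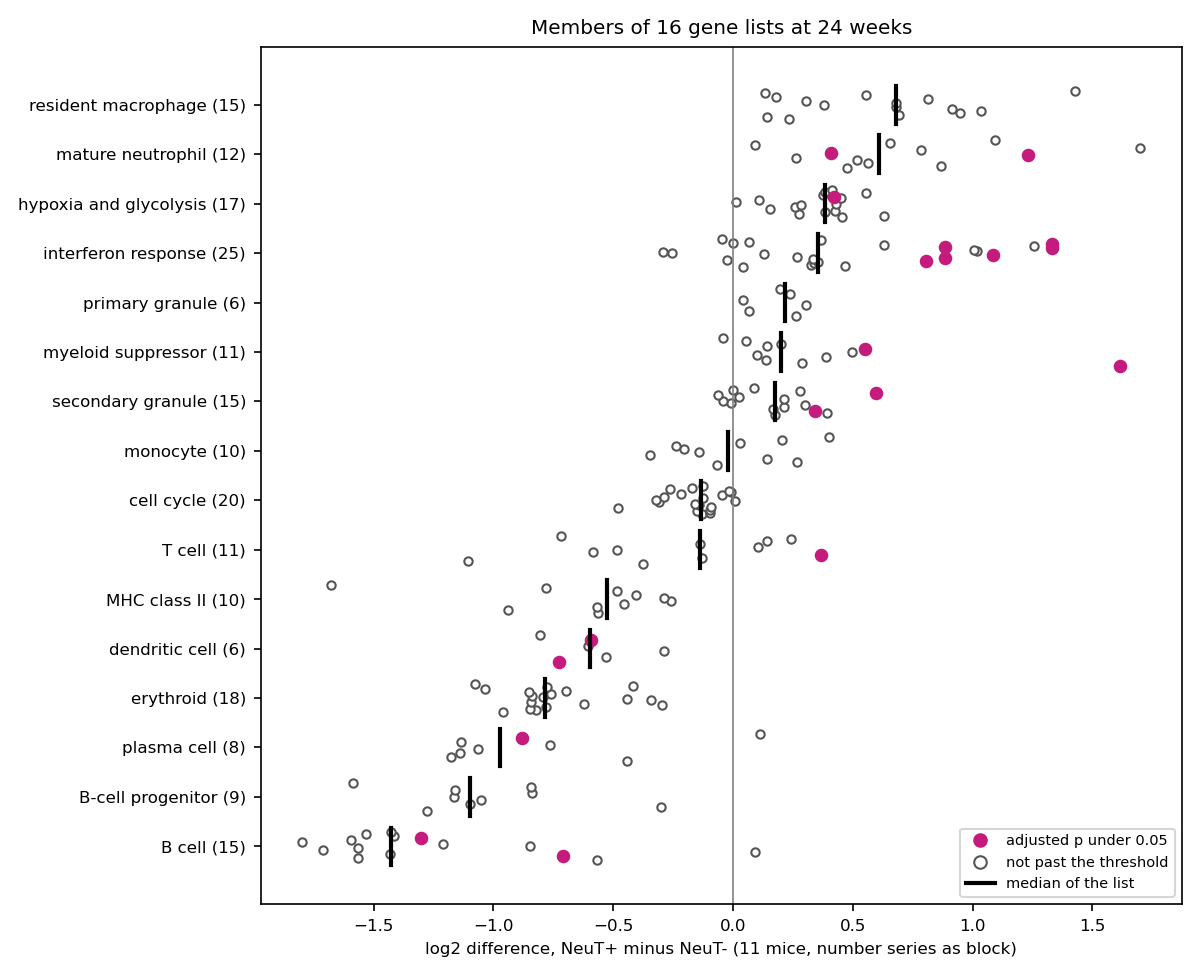
Log2 difference (x axis, NeuT+ minus NeuT-) of each measured member of 16 gene lists, with the number measured in parentheses, pink for members past adjusted p 0.05 and a black bar for the list's median. B cell, B-cell progenitor, plasma cell and erythroid lists have the lowest medians, from -1.43 to -0.79.

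B-lineage genes stood lower in NeuT+ marrow. Of 15 measured B cell genes, 2 fell, 0 rose and 13 did not pass, against 1.44% called lower over all genes. A total of 14 had a negative difference, while 48.2% of all genes had a positive one, and the median was -1.43. Unadjusted p-values were under 0.05 for 14 of the 15, against 15.4% of all genes in that direction. Fewer cells of a type and less RNA per cell cannot be told apart in RNA of whole marrow. Ms4a1, which encodes the B cell antigen CD20, stood at 7.77, 7.10, 7.43, 6.38 and 6.81 in NeuT- mice and from 5.31 (median 5.74) to 6.63 in NeuT+ mice. Detection calls numbered 1 of 6 in NeuT+ and 4 of 5 in NeuT- marrow, and it was 2.46-fold lower (log2 difference -1.30 ± 0.275 SE, adjusted p = 0.0442). Btla, an inhibitory receptor of lymphocytes, ran from 7.56 to 8.29 in NeuT- and from 6.93 (median 7.26) to 7.46 in NeuT+ mice, without overlap (adjusted p = 0.0441). Cd40, the receptor through which T cells stimulate B cells, stood at 10.84, 10.33, 10.47, 9.12 and 10.01 and then from 8.18 (median 8.65) to 9.33. It was 2.73-fold lower (adjusted p = 0.0441), with only NeuT- replicate 4 inside the NeuT+ range.

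Other B cell genes had larger differences that did not pass. These included Fcmr, the receptor for IgM, at -1.80 (adjusted p = 0.0597), Cd72 at -1.71 (0.0552), Fcrla at -1.60 (0.0539), Cd79b, a chain of the B cell receptor, at -1.57 (0.0568) and Spib at -1.53 (0.0536). Of 9 progenitor genes, 0 passed, all 9 had a negative difference and the median was -1.10. Vpreb3 stood at -1.59 (adjusted p = 0.0581), Il7r, the interleukin 7 receptor of early lymphocytes, at -1.16 (0.0548), Ebf1, the factor that commits cells to the B lineage, at -1.10 (0.0568), and Rag1 at -1.16. Dntt, the polymerase that adds bases at antigen receptor joints, stood at -0.30 (adjusted p = 0.536). The number of B cell genes called ran from 0 to 13 over the other settings and over the fits without 1 mouse. Medians were smaller in series 13, -0.98 for B cells and -0.69 for progenitors, than in the series 12 contrast, at -2.91 and -2.39. Within series 13 the groups did not overlap for 1 of 15 B cell and 0 of 9 progenitor genes, against 9.93% of all genes. NeuT+ replicate 5 had the highest median B cell level of the NeuT+ mice and NeuT- replicate 4 the lowest of the NeuT- mice, as the plot of list levels by mouse shows.

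Plasma cell genes stood lower as well, with 1 of 8 lower, 0 higher and a median of -0.97, against 1.44% called lower over all genes. Tnfrsf17, the survival receptor BCMA of plasma cells, stood at 6.70, 7.75, 7.81, 7.16 and 7.34 in NeuT- mice and from 5.42 (median 6.48) to 6.84 in NeuT+ mice. The groups overlapped through NeuT- replicate 1, did not overlap within series 13, and differed 1.84-fold (adjusted p = 0.0444). Jchain, which joins IgM and IgA chains, stood at -1.14 (adjusted p = 0.0529), Mzb1, an endoplasmic reticulum chaperone of antibody-making cells, at -1.06 without overlap (0.0538), and Xbp1, the secretory factor that other cells also express, at 0.11 (0.448). All 10 genes of MHC class II presentation had a negative difference with a median of -0.52, and 0 passed. H2-Ob stood at -1.68 (adjusted p = 0.0535) and Ciita, the master regulator of these genes, at -0.94 (0.0569).

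T and NK cell genes stood on both sides of 0. Of 11 T cell genes, 1 rose, 0 fell and the median was -0.14. Cd3d was 1.29-fold higher without overlap (adjusted p = 0.0442), whereas the other chains of the same receptor complex stood at -0.58 for Cd3e (0.215) and -0.49 for Cd3g (0.145). Zap70, the kinase of the T cell receptor, stood at -0.72 without overlap (adjusted p = 0.0515) and Cd2 at -1.11 (0.0842). Klrd1, a receptor subunit of NK cells, stood at -0.75 without overlap (adjusted p = 0.0539) and the granule protein gene Nkg7 at 0.41 (0.0567). Rasgrp1, which activates Ras in lymphocytes, was outside these lists and was 2.93-fold lower (adjusted p = 0.0494).

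Of 6 measured dendritic cell genes, 2 fell, 0 rose, and all had a negative difference, against 1.44% called lower and 48.2% positive over all genes. The list's medians were -0.63 in series 13 and -0.62 in series 12, where Tcf4 stood at -0.49 and -0.91 and Clec9a at -0.64 and -0.22. Tcf4, the factor that directs plasmacytoid dendritic cell identity, stood at 11.99, 11.39, 11.41, 11.18 and 11.47 in NeuT- mice and from 10.73 (median 10.92) to 11.23 in NeuT+ mice. The ranges overlapped through NeuT+ replicate 1, and Tcf4 was 1.51-fold lower (log2 difference -0.59 ± 0.105 SE, adjusted p = 0.0428). Batf3, the factor of cross-presenting dendritic cells, lay below detection in all 6 NeuT+ mice and above it in all 5 NeuT- mice, and was at least 1.21-fold lower (adjusted p = 0.0429). Siglech, a surface lectin of plasmacytoid dendritic cells, stood at -0.61 without overlap (adjusted p = 0.0569), and Clec9a, a receptor of cross-presenting cells, at -0.53 (0.0682).

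Of 7 osteoblast genes, 1 fell, 0 rose and the median was -0.17, and of 12 stroma and matrix genes 0 passed, with a median of -0.21 and 4 positive. Bglap was the called gene with the lowest difference, and most of the members named here differ more than the median of their lists. Bglap, which encodes osteocalcin of osteoblasts, stood at 8.55, 9.28, 9.08, 7.85 and 7.59 in NeuT- mice and from 4.85 (median 5.96) to 8.10 in NeuT+ mice. NeuT+ replicate 3 overlapped with the NeuT- mice, and the difference was 4.72-fold (log2 difference -2.24 ± 0.512 SE, adjusted p = 0.0488). Detection calls of Bglap numbered 2 of 6 in NeuT+ and 5 of 5 in NeuT- marrow. Most NeuT+ levels thus lie near background and the fold is uncertain. Over 24 other settings its log2 difference ran from -2.63 to -1.36. Bglap2, a near-identical copy whose RNA the probes may share, stood at -2.21 (adjusted p = 0.0515). Col1a1, the main collagen of bone, stood at -2.19 (adjusted p = 0.0505), with NeuT+ replicate 3 at 7.85 and the other NeuT+ mice at 5.75 or less. Its detection calls numbered 1 of 6 in NeuT+ and 5 of 5 in NeuT- marrow. Ibsp, bone sialoprotein, stood at -1.09 (adjusted p = 0.0929), Sparc at -1.13, Alpl at -0.06 and Mepe at 0.43 (0.159). The summed linear level of the 7 osteoblast genes was 314.3 to 1058 in NeuT+ and 880.6 to 2050 in NeuT- mice. How much bone surface went into each marrow sample is not given, and its part in these differences was not tested.

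The other genes with the lowest differences served varied roles. Reln, the secreted glycoprotein reelin, stood at 11.09, 9.96, 10.63, 9.20 and 10.20 in NeuT- mice and from 7.33 (median 8.51) to 9.16 in NeuT+ mice. The groups did not overlap and differed 3.59-fold (log2 difference -1.85 ± 0.370 SE, adjusted p = 0.0439). Sox4, a factor required for early B cell development and the only 1 of 11 stem and progenitor list genes to pass, stood at 12.44, 10.29, 10.31, 9.35 and 10.47 and then from 8.91 (median 9.26) to 10.25. It was 2.65-fold lower (adjusted p = 0.0441), with NeuT- replicate 1 far above all other mice. Myzap was 3.33-fold lower without overlap (adjusted p = 0.0429), and St6gal1, the sialyltransferase that makes the ligand of the B cell protein Cd22, was 2.50-fold lower (0.0441). Cplx2, a complexin of vesicle fusion, was 2.86-fold lower, Sbk1 2.71-fold, Rsph9 2.59-fold and Nuak1, a kinase related to AMPK, 2.55-fold. Myzap and Cplx2 each had detection calls in 2 of 6 NeuT+ and 5 of 5 NeuT- marrows, so their folds rest on NeuT+ levels near background. Over 24 other settings their log2 differences ran from -1.99 to -1.05 for Myzap and from -1.72 to -0.93 for Cplx2. Islr2 lay below detection in all 6 NeuT+ mice and above it in all 5 NeuT- mice, and was at least 1.28-fold lower (adjusted p = 0.0358).

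Kallikrein genes fell together: Klk1b26 was 2.62-fold, Klk1 2.58-fold and Klk1b5 2.57-fold lower. These serine protease genes are near-identical copies whose RNA can bind each other's probes, so the 3 values may report 1 source and are uncertain. Klk1b5 stood at 8.32, 8.96, 9.06, 8.97 and 9.25 in NeuT- mice and from 6.25 (median 7.53) to 8.33 in NeuT+ mice. NeuT- replicate 1 and the highest NeuT+ mouse met at the border of the groups (adjusted p = 0.0358).

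Erythroid genes had a low median without a call. All 18 measured had a negative difference with a median of -0.79. Over all genes 48.2% were positive. None passed, and unadjusted p-values were under 0.05 for 9 of them, against 15.4% of all genes in that direction. Trim10 stood at -1.08 (adjusted p = 0.173), Slc4a1, the anion exchanger band 3, at -1.04 (0.177), Rhag at -0.85 (0.152), Alas2, the first enzyme of heme synthesis in red cells, at -0.82 (0.317) and Klf1 at -0.76 (0.226). Their median difference was -0.45 in series 13 and -1.76 in series 12. Within series 13 the groups did not overlap for 0 of the 18, against 9.93% of all genes. NeuT+ replicate 2 had the lowest centred median level of the list among the 11 mice, at -1.94. The summed linear level of the list was 10060 to 44730 in NeuT+ and 35770 to 59060 in NeuT- mice. Cell cycle genes stood slightly lower, with 19 of 20 negative, a median of -0.14 and 0 passing, and Mcm4, a subunit of the replicative helicase, had the smallest p, at -0.32 without overlap (adjusted p = 0.0505).

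All 15 measured resident macrophage genes had a positive difference over both series and in series 13, against 48.2% and 48% of all genes, with medians of 0.68 and 1.19, and 0 passed. In the series 12 contrast, which rests on 1 NeuT- mouse, the median was -0.72. No member's difference between the series passed, but with 1 NeuT- mouse in series 12 that test has little power and does not show that the series were alike. Vsig4, a complement receptor of tissue macrophages, stood at 7.20, 5.20, 5.03, 6.36 and 5.38 in NeuT- mice and from 6.22 (median 7.59) to 8.17 in NeuT+ mice (log2 difference 1.43, adjusted p = 0.0789). C1qa, a chain of the complement component C1q, stood at 8.55, 7.23, 6.73, 7.54 and 6.85 and then from 7.68 (median 8.29) to 8.97 (log2 difference 0.95, adjusted p = 0.120). Its groups did not overlap within series 13, and NeuT- replicate 1 lay above 3 of the 6 NeuT+ mice. Siglec1, the sialic acid receptor of marrow macrophages, stood at 1.45 in series 13 and -1.10 in series 12. Vcam1, a marker of the macrophages in erythroblast islands, stood at 0.14 (adjusted p = 0.656). Monocyte genes had a median of -0.02, with 0 of 10 passing.

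The difference between genotypes was set against that at 12 weeks, where 9 NeuT+ and 9 NeuT- mice of other animals were measured. In a fit of all 47 mice, 371 genes (3.28%) had a genotype difference at 24 weeks that differed from that at 12 weeks, and 118 of them were among the 277. That count was 43 when NeuT- replicate 1 was left out and 728 when NeuT+ replicate 5 was. It was 715 without NeuT- replicate 4, and 200, 216 and 167 without NeuT+ replicate 2, 4 and 6. It was 203 and 144 without NeuT- replicate 2 and 3. Of the 116 genes named by rule, 43 had such a difference, 11 higher and 32 lower at 24 weeks. Without NeuT- replicate 1, where the 24-week difference comes from 1 number series alone, 37 of the 43 lost it. The 6 that kept it without any 1 of the 11 mice were Peg3, Slc32a1, Sox4, Nuak1, Tcf4 and Tnfrsf17.

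Sox4 had a log2 difference of 0.10 at 12 weeks, and its value at 24 weeks was lower by -1.52 ± 0.267 (SE, adjusted p = 0.00154, and 0.0305 at most without 1 mouse). Nuak1 stood at 0.24 at 12 weeks with a change of -1.59 ± 0.274 (adjusted p = 0.00140), Tcf4 at 0.09 with -0.68 ± 0.110 (8.27e-04), and Tnfrsf17 at 0.04 with -0.92 ± 0.201 (0.00887). Slc32a1 stood at 0.06 at 12 weeks with a change of 1.14 ± 0.203 (adjusted p = 0.00179). Peg3 stood at a fitted 6.33 at 12 weeks, so it was higher in NeuT+ marrow at that age too, with a change of -1.69 ± 0.255 (adjusted p = 3.39e-04). That change has no fixed size because the NeuT- levels of Peg3 at 24 weeks lie at background. No 12-week mouse belonged to series 13, so for these 4 against 4 mice age and number series cannot be told apart. Of the interferon genes, Oas3 stood at 0.17 at 12 weeks with a change of 1.16 ± 0.330 (adjusted p = 0.0423), and Rtp4 at 0.05 with 1.29 ± 0.279 (0.00804). Without NeuT- replicate 1 both were lost, at adjusted p = 0.301 and 0.154. Oas3 was lost in 6 of the 11 fits without 1 mouse, also without NeuT- replicates 2 and 3 and NeuT+ replicates 2, 4 and 6.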

How the data were processed

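RNA of marrow from 47 mice, and 5 reference RNAs, had been hybridized to mouseWG-6 v2.0 BeadChips of Illumina. Extraction used Trizol, per the labels' protocols. For amplification, the design text gives a TotalPrep kit but the labels' protocol field gives DASL, and it is unsettled which applies. The probe intensities are linear values that the authors exported with BeadStudio 3.3.8. Beside each stands a deposited detection p-value, which compares the probe with negative controls. The authors' deposited log2 values came from lumi (version not given in the sources used here) after robust spline normalization, per the design text, and served as an alternative.

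Intensities of all 52 arrays were normalized with neqc of limma 3.58.1 (R 4.3.3; offset 16), which gives log2 levels. A detection p under 0.01 on at least 1 array kept 21592 of 45281 probes. A single symbol was paired with 34885 of the 45281, several with 18, and 10378 have no entry and stay unnamed. RefSeq (GRCm38.p6) gave current symbols, through the Entrez number for 34807 probes and the accession for 11. The brightest probe stood for a gene, which left 11309 genes. The 11 arrays were fitted with limma's lmFit and eBayes for genotype and number series, with Benjamini-Hochberg adjustment over all genes and a threshold of 0.05. The fit was tested on simulated data. The difference between ages was fitted on 47 mice with array weights by group and number series within age as blocks.

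A fold against a group with no detected array is a bound. The rule for named genes takes Peg3, the 15 called genes with the highest and the 15 with the lowest difference among those detected on every array of the higher group, and from each list up to 4 members with the smallest p, or 2 where no member passed. Further list members given as values, Snx16 and Cacna2d1 were chosen after their values were seen. The comparison, gene lists and tests were chosen with earlier results of these data known. Titles give every mouse its own number, and replicates were numbered in accession order.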

Additional observations from a re-analysis of the deposited data

Results flagged for a closer look

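Single mice stood apart from the rest of their group in 16 of 232 sets of values tested, where chance flags about 1 in 20. The gap to the nearest other mouse was large against the group's range in 11 sets of NeuT+ and 5 of NeuT- mice. NeuT+ replicate 2 was isolated in 8 of them. It was low for Tnfrsf17 at 5.42 and Mzb1 at 10.65, genes of plasma cells, for Prss34 at 11.97, Cd200r3 at 6.56 and Fcer1a at 9.34, genes of basophils and mast cells, and for Klrd1 at 6.99 and Il7r at 8.33 of lymphocytes. It was high for Hk3 at 14.06. NeuT- replicate 4 was high for Csf2ra at 12.57, Creld2 at 11.54 and Gfi1 at 11.96. NeuT- replicate 1 was low for Oasl1 at 8.68 and Ier3 at 11.05. NeuT+ replicate 1 was high for Cxcl12 at 11.07, replicate 3 for Col1a1 at 7.85 and replicate 5, with the lowest tumor burden, for Ms4a1 at 6.63.

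The genotype difference at 24 weeks differed from that at 12 weeks for 43 named genes (limma, adjusted p under 0.05). These genes were named by their 24-week result on the same arrays, which raises the count. Without NeuT- replicate 1, where the 24-week difference comes from series 13 alone, 37 of them lost this. Changes are log2 differences at 24 weeks minus those at 12 weeks. Interferon genes gave 1.16 for Oas3, 1.29 for Rtp4, 1.13 for Oas1g and 0.87 for Oasl1. Other positive changes were 1.29 for Upp1, 1.14 for Slc32a1, 1.02 for Clec4n, 0.92 for Gja5, 0.75 for Pknox2, 0.49 for Hdc and 0.46 for Mmp9. Of B-lineage and plasma cell genes, Irf4 gave -1.64, Fcrla -1.45, Ebf1 -1.22, Spib -1.21, Il7r -1.18, Ms4a1 -1.11, Jchain -0.97, Mzb1 -0.95, Tnfrsf17 -0.92 and Btla -0.59. H2-Ob of antigen presentation gave -1.40 and Cd40 -1.13. Cd2 gave -1.15, Zap70 -0.65 and Klrd1 -0.63, among T and NK cell genes. Tcf4 and Siglech of dendritic cells gave -0.68 and -0.74, and the erythroid Ermap -0.96. The other lowest genes gave -1.74 for Cplx2, -1.61 for Myzap, -1.59 for Reln, -1.59 for Nuak1, -1.52 for Sox4, -1.48 for Islr2, -1.33 for Rasgrp1, -1.24 for Sbk1, -1.24 for St6gal1 and -1.18 for Rsph9. The kallikreins gave -1.06 for Klk1b26, -0.96 for Klk1b5 and -0.93 for Klk1. Peg3 gave -1.69, a fitted value with no fixed size, since it was at background in NeuT- marrow. Between number series, Cacna2d1 gave -2.51 for series 12 minus series 13, a fitted value of a probe detected on 1 of the 11 arrays.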

How the results depend on the processing

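All 277 genes kept their sign in every one of 24 other settings in which they were measured, and Peg3 passed the threshold in all 24. These settings reuse arrays on which the 277 were called, so the kept signs are no separate support. The number of calls did not hold. In place of 277 (114 higher, 163 lower), there were 19 (8 and 11) with no block for number series, 3 (2 and 1) in series 13 alone, 29 (12 and 17) with median scaling, 57 (26 and 31) with no filter on detection and 184 (89 and 95) with the mean of a gene's probes. There were 483 (188 and 295) with normalization of the 11 arrays alone, 726 (318 and 408) with detection on at least 5 of the 11 arrays, 880 (375 and 505) with the authors' deposited log2 values, 968 (404 and 564) with quantile values without background correction and 996 (438 and 558) with array weights. Fits of all 47 mice gave 1749 (696 and 1053) with weights by group and 1955 (788 and 1167) with a shared spread. Number series as a random block gave 325 (114 and 211). Leaving out 1 mouse gave 1 to 903 calls, 1 to 372 higher and 0 to 543 lower. Series 13 alone gave 15 calls with the deposited log2 values, and 1 to 219 without 1 mouse, the highest without NeuT- replicate 4. The count of genes whose difference changed between 12 and 24 weeks was 43 to 728 without 1 mouse, an alternative chosen after seeing the data. The 43 were found without NeuT- replicate 1, where the 24-week difference comes from 1 number series alone. The genotype difference in detected probes, -579 over all assignments (exact permutation p = 0.113), was -683 beside number series (p = 0.0381), also chosen after seeing the data. Detecting fewer or more probes changes the number of genes tested, to 8677 or 19053; the cause of the other shifts was not tested. With 11 arrays, all calls but Peg3 lie near the threshold, so the counts are uncertain. No paired analysis was possible because the labels give the groups no shared replicate numbers.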

Other observations

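Lists with no call in the report's main groups also had members on both sides of 0. All but 1 of 11 megakaryocyte and platelet genes had a positive difference, with a median of 0.26 over both series, 0.44 in series 13 and -0.24 in the series 12 contrast, and 0 passed. Of 19 inflammatory cytokine and NF-kB genes 0 passed, with Socs3, a feedback inhibitor of cytokine signalling, at 1.00 (adjusted p = 0.217) and Il1b at 0.78 (0.230). Of 13 genes of the unfolded protein response 0 passed, with a median of 0.22. Of 13 immediate early genes 0 passed, with a median of -0.22, and their centred median level was lowest in both NeuT+ mice of series 12, at -1.23 and -1.14. Of 4 eosinophil genes 0 passed, with a median of -0.34. Of 11 endothelial genes 0 passed, with a median of -0.16, and of 7 skeletal muscle genes 0 passed and 4 were detected on none of the 11 arrays.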
